A study of Mus musculus with 9 samples.

Results

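The nidogens, heparan sulfate proteoglycans and nephronectin examined here are 10 genes that were chosen by name for their role in the basement membrane and at the cell surface: the matrix linkers Nid1, Nid2, Tinagl1 and Npnt, the matrix proteoglycans Hspg2 and Agrn, and the syndecans Sdc1, Sdc2, Sdc3 and Sdc4. All 10 were found among the 16867 genes listed, and all 10 were among the 16764 genes that could be tested. Polyadenylated RNA was sequenced from glomeruli of 9 male C57BL/6 mice between 30 and 35 days old. The 4 Cosmc KO animals carried Podo-Cre, a Cre transgene active in podocytes, together with Cosmc Y/flox, a floxed copy of the X-linked gene Cosmc (C1galt1c1 in the table), whose product is the chaperone of the enzyme that extends O-glycans. They were 35, 34, 31 and 30 days old in the order Cosmc KO 1 to 4. The 5 controls differed among themselves: controls 1, 4 and 5 were Podo-Cre; Cosmc Y/+ (35, 30 and 30 days), control 2 was Cosmc Y/flox without Cre (34 days) and control 3 was Cosmc Y/+ without Cre (31 days). The labels do not say which stretch of Cosmc is floxed. Cre acts in podocytes, and the glomeruli, which were captured with magnetic beads, also hold other cells (endothelial, mesangial, parietal), for which the labels state no deletion. Each library has an animal of its own in the labels, and p-values measure the spread between these libraries. Because the RNA comes from whole glomeruli, fewer cells of a type and less RNA per cell cannot be told apart.

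A basement membrane is built from a laminin network and a collagen IV network, and nidogens bind both. Heparan sulfate proteoglycans carry long, negatively charged sugar chains on a core protein; perlecan (Hspg2) and agrin (Agrn) are secreted into the matrix, and agrin is the prominent one of the glomerular basement membrane, whereas syndecans span the plasma membrane and bind matrix and growth factors through their chains. Nephronectin (Npnt) is a matrix protein that podocytes deposit and that binds the integrin with the Itga8 subunit, which mesangial cells carry.

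Depth, as recovered reads over all listed genes, was 35.0 to 58.1 M in Cosmc KO libraries and 31.5 to 41.8 M in control libraries. The targeted gene C1galt1c1 had 961 ± 159 normalized counts in Cosmc KO glomeruli and 1468 ± 69.7 in control glomeruli (SD, n = 4 and 5; normalized counts are read counts divided by a size factor per library), with no overlap (log2 fold change -0.63 ± 0.11 SE, limma adjusted p = 0.0111). C1galt1c1 was called without any 1 library (limma adjusted p up to 0.0343) and in 21 of 24 alternative fits, with log2 fold changes from -0.706 to -0.512. The glomerular label was not tested. None of the 20 podocyte, 15 endothelial or 15 mesangial and vascular muscle markers was at 0 in all libraries. That could not have come out otherwise, since all had passed the filter of a value of 10 in 4 or more libraries. The tubule and immune markers had none at 0 either. The marker scores given below are the mean log2(normalized count + 1) of such a list in a library. Podocyte scores were 14.58, 13.43, 13.91 and 14.18 in Cosmc KO 1 to 4 and 15.08, 14.60, 14.60, 14.68 and 14.89 in controls 1 to 5, with the highest Cosmc KO value just under the lowest control value. Of these 20 podocyte markers 1 was higher and 9 were lower (16 lower without Cosmc KO 1 and 15 with the replicate number as a block), and their summed normalized counts ran between 509431 and 1259331 in Cosmc KO libraries and between 1159181 and 1676870 in control libraries. Tubule RNA was present in every library, and the proximal tubule scores were 11.14, 13.84, 13.84 and 12.85 in Cosmc KO 1 to 4 and 10.90, 12.62, 12.60, 11.85 and 10.29 in controls 1 to 5. Their 20 markers had summed normalized counts of 112899 to 879229 in Cosmc KO libraries and 77016 to 316971 in control libraries, and their median log2 fold change was 1.38. In the limma fit of all libraries none of the 20 was called (3 at an unadjusted p under 0.05, 3 with DESeq2 and 0 with edgeR), but 17 were higher without Cosmc KO 1 and 17 with the replicate block. Macrophage and immune scores were 9.26 to 9.63 in Cosmc KO libraries and 7.97 to 9.08 in control libraries (7 of 17 markers higher and none lower, and 14 higher with the replicate block), and parietal scores 10.19 to 11.09 in Cosmc KO libraries and 9.71 to 10.07 in control libraries (3 of 13 higher and 1 lower, with 11 higher without Cosmc KO 1 and 8 with the block). Endothelial markers gave 3 higher and none lower of 15, mesangial and vascular muscle markers 3 higher and 1 lower of 15, and distal nephron markers none higher and 1 lower of 15. Of all 16764 tested genes, 698 were higher and 600 lower in the fit of all libraries. Without Cosmc KO 1 these counts were 2439 and 2445, and with the replicate block 1601 and 1189. The marker counts in those fits stand beside this rise over all genes. The part of these other cell types in the members' differences was not tested.

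Nid1, Nid2, Tinagl1, Hspg2 and Sdc3 were higher in Cosmc KO glomeruli, Sdc2 was lower, and Npnt, Agrn, Sdc1 and Sdc4 did not pass the test. A gene was called when its adjusted p was under 0.05 in a limma fit over all tested genes on log2(normalized count + 1); fold changes are differences on that scale, Cosmc KO minus control. The 5 members called higher compare with 4.16% of all tested genes called higher, and the 1 called lower with 3.58% called lower. The members were chosen with earlier results of these data known. This comparison and those that follow are therefore a description and no test of the members as a set. All 5 higher members, and no other member, had groups that did not overlap, where 5.83% of all genes lay wholly higher in Cosmc KO libraries. The median log2 fold change was 0.29 over the 10 members and 0.00 over all tested genes, and the median size of the difference, whatever its sign, was 0.47 for the members and 0.23 for all. The authors' deposited table, from their own DESeq2 fit of the same libraries, likewise has 5 members higher and 1 lower at an adjusted p under 0.05, where it has 8.58% of all listed genes higher and 7.42% lower. The same 6 members were called with the replicate number as a block. Same-numbered animals share an age, and control 5, which has no same-numbered Cosmc KO animal, was left out of that fit. In it 9.55% of all tested genes were higher and 7.09% lower.

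**Figure D1:**
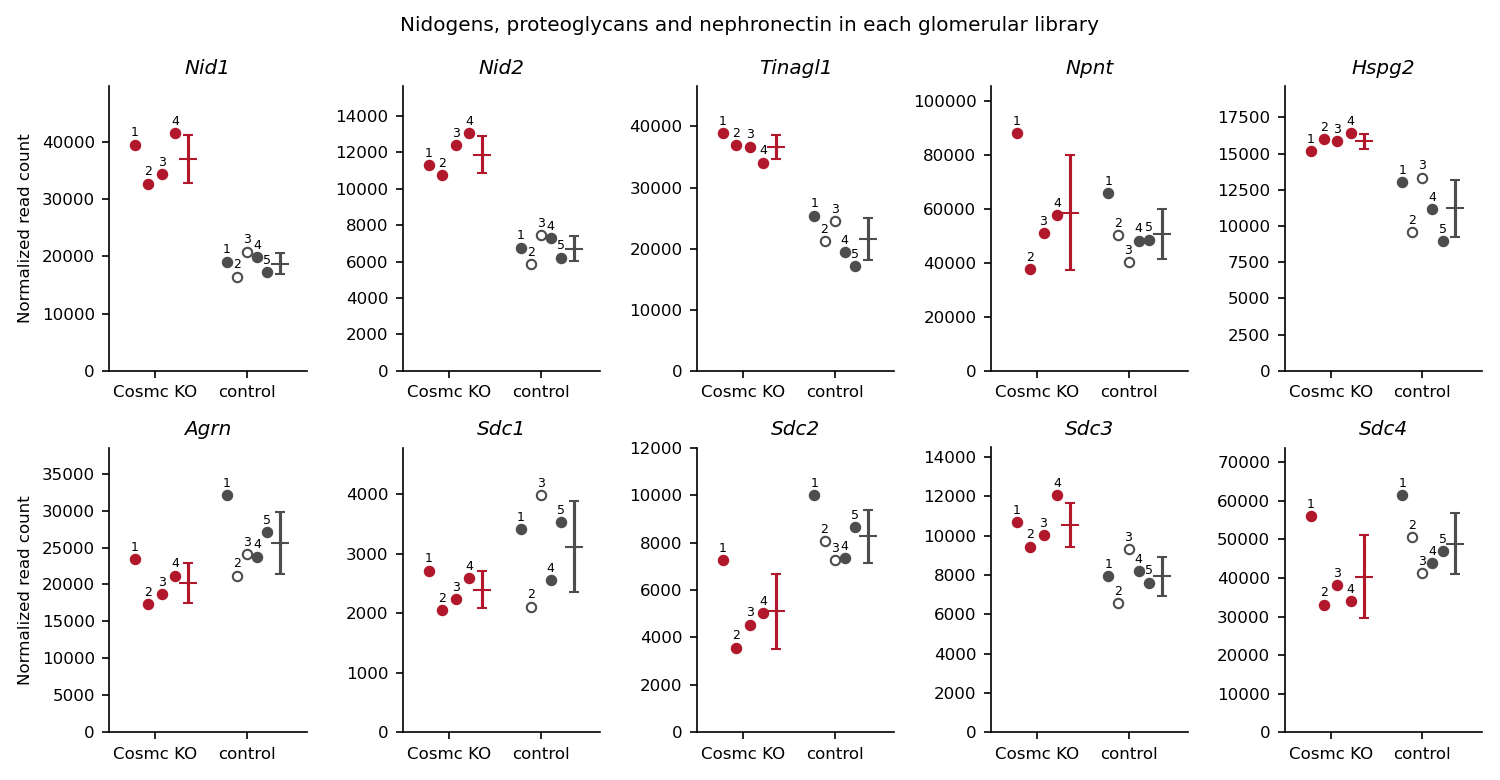
Normalized counts of the 10 members in each library, 1 panel a gene on an axis from 0, with Cosmc KO left of control; each point is a library marked with its replicate number, open circles are the 2 controls without Cre, and bars give the mean and SD. The 4 Cosmc KO libraries lie above all 5 controls for Nid1, Nid2, Tinagl1, Hspg2 and Sdc3, and the groups overlap for the other 5 members.

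Promoter sequence is shown for the members that were called and for which RefSeq promoter windows on GRCm38.p6 were at hand, since these are the genes whose transcript level differed. Each window runs from 250 bases before to 50 bases after an annotated start, on the strand of the gene. Capitals mark matches, on either strand, to 6 short motifs: GGGCGG for the GC box, CCAAT for the CCAAT box, TATAAA for the TATA box, TGANTCA for AP-1, GGAATG for TEAD, and an NF-kB motif. Windows were found for 8 of the 10 members, 11 windows in all. Nid1 is shown at chr13:13437352-13437651 (plus strand), Tinagl1 at its 2 starts at chr4:130175073-130175372 and chr4:130174753-130175052 (minus strand), Hspg2 at chr4:137468553-137468852 (plus strand) and Sdc3 at chr4:130792287-130792586 (plus strand).
Nid1: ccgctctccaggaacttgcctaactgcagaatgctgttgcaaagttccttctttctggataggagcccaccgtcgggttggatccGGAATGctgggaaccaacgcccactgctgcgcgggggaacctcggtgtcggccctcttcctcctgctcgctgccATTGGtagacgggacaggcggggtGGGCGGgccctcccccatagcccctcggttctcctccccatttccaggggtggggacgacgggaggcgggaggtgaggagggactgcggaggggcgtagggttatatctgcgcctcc
Tinagl1, first window: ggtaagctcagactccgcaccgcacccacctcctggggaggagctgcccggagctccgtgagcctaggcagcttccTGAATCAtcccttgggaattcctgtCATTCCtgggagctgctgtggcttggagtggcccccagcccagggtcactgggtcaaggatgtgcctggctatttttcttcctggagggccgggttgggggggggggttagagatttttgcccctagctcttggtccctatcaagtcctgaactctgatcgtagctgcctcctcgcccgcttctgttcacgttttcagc
Tinagl1, second window: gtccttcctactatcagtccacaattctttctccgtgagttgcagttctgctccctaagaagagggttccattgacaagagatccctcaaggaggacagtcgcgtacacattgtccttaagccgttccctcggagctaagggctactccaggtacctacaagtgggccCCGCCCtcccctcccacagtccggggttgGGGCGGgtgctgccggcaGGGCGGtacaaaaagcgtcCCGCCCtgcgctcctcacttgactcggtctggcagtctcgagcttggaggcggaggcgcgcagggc
Hspg2: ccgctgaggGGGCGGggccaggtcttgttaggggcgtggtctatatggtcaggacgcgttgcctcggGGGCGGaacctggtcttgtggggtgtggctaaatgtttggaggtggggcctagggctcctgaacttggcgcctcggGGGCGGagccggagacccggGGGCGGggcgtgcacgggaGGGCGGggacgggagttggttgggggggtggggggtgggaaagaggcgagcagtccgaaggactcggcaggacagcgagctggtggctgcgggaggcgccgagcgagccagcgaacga
Sdc3: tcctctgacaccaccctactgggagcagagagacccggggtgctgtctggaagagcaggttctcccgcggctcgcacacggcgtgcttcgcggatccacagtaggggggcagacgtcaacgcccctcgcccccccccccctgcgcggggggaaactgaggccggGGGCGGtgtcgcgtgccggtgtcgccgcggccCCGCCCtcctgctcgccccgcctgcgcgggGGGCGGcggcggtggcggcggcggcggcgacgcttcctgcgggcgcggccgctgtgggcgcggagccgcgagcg

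The GC box, the letters bound by Sp-family factors, was in 9 of the 11 member windows and in 35.7% of the 32851 windows of this length. Hspg2 had 5 copies, the second Tinagl1 window 4, Sdc3 3 and Nid1 1. The first Tinagl1 window held no GC box and was the single member window with the AP-1 letters, which occur in 7.81% of all windows. TEAD letters were in 2 member windows, that of Nid1 and the first of Tinagl1, against 14.7% of all windows. A CCAAT match was in 2 windows (37.4% of all), while the TATAAA and NF-kB letters were in none (13.6% and 1.63% of all). GC content ran from 60.0% to 83.3% over the member windows with a median of 52.7% over all windows, and each of the 11 held more CpG dinucleotides (9 to 44) than the median window (7). Such matches describe the letters in these windows, and members called higher and members not called both had GC boxes.

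The nidogens were the members with the highest fold changes. Nid1 encodes nidogen 1, the glycoprotein that bridges laminin and collagen IV, and lies at chr13:13437551-13512269 on the plus strand (20 merged exons). It had 39444, 32641, 34274 and 41408 normalized counts in Cosmc KO 1 to 4, against 19074, 16425, 20808, 19856 and 17223 in controls 1 to 5. Every Cosmc KO library was thus well above every control, and the lowest of them exceeded the highest control by a wide margin. The means were 36942 ± 4156 in Cosmc KO glomeruli and 18677 ± 1822 in control glomeruli (SD, n = 4 and 5), a log2 fold change of 0.98 ± 0.11 (SE, limma adjusted p = 0.00127).

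Nid2 encodes nidogen 2, the second member of the family with the same binding partners, and lies at chr14:19751265-19811787 on the plus strand (22 merged exons). Normalized counts were 11297, 10759, 12377 and 13027 in Cosmc KO 1 to 4, against 6762, 5875, 7450, 7271 and 6211 in controls 1 to 5. Again no Cosmc KO library reached down to the controls. Nid2 averaged 11865 ± 1026 in Cosmc KO glomeruli and 6714 ± 673 in control glomeruli, with a log2 fold change of 0.82 ± 0.10 (SE, limma adjusted p = 0.00144). Both nidogens were called in all 24 alternative fits, including those without any 1 library (adjusted p up to 0.00562 for Nid1 and 0.00813 for Nid2), with Cre-carrying controls only, and with a term for the podocyte or the proximal tubule score. The 2 genes overlap exons of opposite-strand genes by 143 bases (Nid1, with Gm48682) and 437 bases (Nid2, with Rtraf); the strand setting of the counting was not given in the sources used here, so reads from these stretches cannot be told apart.

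Within a library the 2 nidogens kept a nearly fixed proportion among the controls. The log2 ratio of Nid2 to Nid1 was -1.80, -1.60, -1.47 and -1.67 in Cosmc KO 1 to 4, and -1.50, -1.48, -1.48, -1.45 and -1.47 in controls 1 to 5. The mean was -1.64 ± 0.14 in Cosmc KO libraries and -1.48 ± 0.02 in control libraries, and the difference of -0.16 did not pass a two-sided exact permutation test (p = 0.0794, adjusted p = 0.0992 over 5 ratios; the smallest p that the 126 splits allow is 0.0159). Per kilobase of merged exon, Nid1 made up 69.8% ± 2.03 of the nidogen counts in Cosmc KO glomeruli and 67.5% ± 0.27 in control glomeruli.

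Tinagl1, tubulointerstitial nephritis antigen-like 1, is a secreted glycoprotein of basement membranes (chr4:130164454-130175122, minus strand, 15 merged exons). It had 38846, 36937, 36682 and 34066 normalized counts in Cosmc KO 1 to 4, against 25386, 21246, 24464, 19393 and 17140 in controls 1 to 5. The Cosmc KO libraries were close to each other and all above the controls. The means were 36633 ± 1965 in Cosmc KO glomeruli and 21526 ± 3442 in control glomeruli, with a log2 fold change of 0.78 ± 0.13 (SE, limma adjusted p = 0.00662). It was called without any 1 library (adjusted p up to 0.0271), and missed the threshold in 2 fits, with the podocyte score as a covariate (log2 fold change 0.82, adjusted p = 0.057) and without Cosmc KO 2 and 3 together (0.77, adjusted p = 0.0734).

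Npnt, at chr3:132881745-132950291 on the minus strand (15 merged exons), did not pass the test. Nephronectin transcripts reached 87937, 37739, 50957 and 57719 normalized counts in Cosmc KO 1 to 4, against 65955, 50335, 40341, 48252 and 48636 in controls 1 to 5. Cosmc KO 1 was the highest library of the series and Cosmc KO 2 the lowest, so the groups overlapped widely. The mean was 58588 ± 21253 in Cosmc KO glomeruli and 50704 ± 9360 in control glomeruli, and the log2 fold change of 0.16 ± 0.23 did not pass (SE, limma adjusted p = 0.683); without Cosmc KO 1 it was -0.06. Cosmc KO 1 and control 1, the highest Npnt libraries of their groups, also had the highest podocyte scores of their groups. With the podocyte score as a covariate Npnt was called (log2 fold change 0.92, limma adjusted p = 0.0194), as were Nid1 and Nid2, 3 members higher where 1.50% of all genes were; the score itself separates the groups, so this fit compares libraries with little shared range, and the part of podocyte content in the Npnt values was not tested. Itga8, the receptor subunit of nephronectin, which was chosen after its values were seen, had 28394 ± 7814 normalized counts in Cosmc KO glomeruli and 27550 ± 2602 in control glomeruli (limma adjusted p = 0.980).

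Of the matrix proteoglycans, Hspg2 was higher and Agrn did not pass the test. Hspg2 encodes perlecan, a large multidomain core protein (chr4:137468769-137570630, plus strand, 97 merged exons). Its normalized counts were 15167, 15986, 15832 and 16382 in Cosmc KO 1 to 4, against 13024, 9590, 13339, 11139 and 8952 in controls 1 to 5. All 4 Cosmc KO libraries lay in a narrow band above the controls, which were spread more widely. Perlecan averaged 15842 ± 506 in Cosmc KO glomeruli and 11209 ± 1972 in control glomeruli, with a log2 fold change of 0.52 ± 0.13 (SE, limma adjusted p = 0.0373). The call was lost when Cosmc KO 2, 3 or 4 or control 2, 4 or 5 was left out (adjusted p = 0.0756 to 0.103), while the fold change stayed positive.

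Agrn encodes agrin (chr4:156165290-156197488, minus strand, 37 merged exons). It had 23459, 17300, 18719 and 21203 normalized counts in Cosmc KO 1 to 4, against 32101, 21203, 24059, 23780 and 27047 in controls 1 to 5. Most Cosmc KO libraries were lower, but Cosmc KO 1 and 4 lay within or at the edge of the control range. The means were 20170 ± 2722 in Cosmc KO glomeruli and 25638 ± 4164 in control glomeruli, and the log2 fold change of -0.34 ± 0.14 did not pass (SE, limma adjusted p = 0.149). As with Npnt, control 1 had the highest Agrn count of the controls and Cosmc KO 1 the highest of the Cosmc KO libraries, and with the podocyte score as a covariate the fold change was 0.05.

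The balance of agrin to perlecan transcripts differed between the groups. The log2 ratio of Agrn to Hspg2 normalized counts was 0.63, 0.11, 0.24 and 0.37 in Cosmc KO 1 to 4, and 1.30, 1.14, 0.85, 1.09 and 1.60 in controls 1 to 5. The means were 0.34 ± 0.22 and 1.20 ± 0.28, a difference of -0.86 with no overlap (two-sided exact permutation p = 0.0159, the smallest this design allows, adjusted p = 0.0397 over 5 ratios). The difference ran from -0.95 to -0.76 when single libraries were left out, where the smaller design put the adjusted exact permutation p above the threshold (up to 0.0893) without any 1 library other than control 3. The ratio was lower in the Cosmc KO animal of all 4 same-numbered pairs (mean difference -0.76 ± 0.19 SD). Swaps within pairs allow 16 arrangements and no two-sided exact permutation p below 0.125, the value reached (adjusted p = 0.208). This swap test therefore could not pass at any size of difference, and no other paired test of the ratio was run. A ratio within a library does not depend on how libraries were scaled, and it shows unequal change of the 2 genes rather than which of them moved. Over the alternatives the ratio passed in 3 of 14, and its pair came from members chosen with earlier results of these data known.

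**Figure D2:**
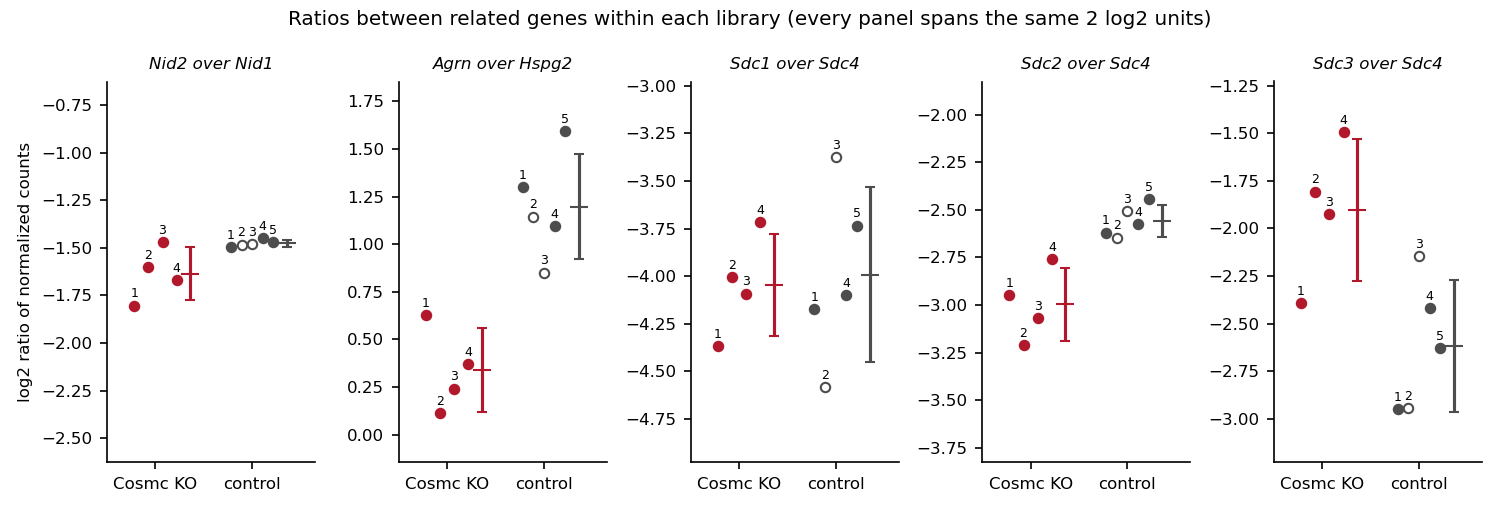
Log2 ratios of normalized counts of member pairs in each library, with Cosmc KO left of control; points are libraries marked with their replicate number, open circles are the 2 controls without Cre, and bars give the mean and SD. The groups are apart for Agrn over Hspg2 (0.34 and 1.20 on average) and for Sdc2 over Sdc4 (-3.00 and -2.56), and overlap for the other 3 ratios.

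Among the syndecans 1 was higher, 1 was lower and 2 did not pass. Sdc2, syndecan 2, is a transmembrane proteoglycan of mesenchymal and epithelial cells (chr15:32920723-33034935, plus strand, 5 merged exons). It had 7267, 3570, 4535 and 5026 normalized counts in Cosmc KO 1 to 4, against 10005, 8071, 7267, 7339 and 8649 in controls 1 to 5. Cosmc KO 2, 3 and 4 were below every control, and Cosmc KO 1 met control 3. Sdc2 averaged 5099 ± 1566 in Cosmc KO glomeruli and 8266 ± 1126 in control glomeruli, with a log2 fold change of -0.73 ± 0.18 (SE, limma adjusted p = 0.0407).

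The Sdc2 call rested on the full set of libraries. Leaving out any 1 library other than Cosmc KO 1 raised the adjusted p above the threshold (0.062 to 0.120), whereas without Cosmc KO 1 it was 0.00331. With the podocyte score as a covariate the fold change was -0.10 (adjusted p = 0.731), and with the tubule score in its place it was -0.45 (adjusted p = 0.0919). The order of the Cosmc KO libraries in Sdc2 was the order of their podocyte scores, while among the controls the orders differed for controls 2 and 4. The podocyte score itself separates the groups, so the fit with it compares libraries with little shared range. The part of podocyte content in the Sdc2 difference was not tested.

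Sdc3, syndecan 3, is the family member best known from neural tissue (chr4:130792537-130826319, plus strand, 7 merged exons). Normalized counts were 10678, 9446, 10025 and 12066 in Cosmc KO 1 to 4, against 7958, 6577, 9323, 8194 and 7608 in controls 1 to 5. The groups did not overlap, although Cosmc KO 2 and control 3 were close. The means of 10554 ± 1127 in Cosmc KO glomeruli and 7932 ± 993 in control glomeruli gave a log2 fold change of 0.42 ± 0.11 (SE, limma adjusted p = 0.0498), at the edge of the threshold. It was called without Cosmc KO 1 or without control 3, and lost when any 1 of the other 7 libraries was left out (adjusted p up to 0.118). Exons of the opposite-strand genes Gm12970 and Gm26716 overlap those of Sdc3 by 463 bases, so here too reads of both strands may be joined.

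Sdc4, syndecan 4, is a component of focal adhesions (chr2:164424247-164443887, minus strand, 6 merged exons). It had 56042, 33044, 38088 and 34011 normalized counts in Cosmc KO 1 to 4, against 61473, 50545, 41300, 43789 and 47009 in controls 1 to 5. Cosmc KO 2, 3 and 4 were below all controls, and Cosmc KO 1 was above 4 of the 5. The means were 40296 ± 10722 in Cosmc KO glomeruli and 48823 ± 7877 in control glomeruli, and the log2 fold change of -0.30 ± 0.18 did not pass (SE, limma adjusted p = 0.307). Without Cosmc KO 1 it was -0.47 and passed (limma adjusted p = 0.0378), so that 2 members were lower in that fit, where 14.6% of all genes were called lower.

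Sdc1, syndecan 1, the epithelial family member (chr12:8771323-8793715, plus strand, 7 merged exons), ran between 2055 and 2711 normalized counts in Cosmc KO libraries and between 2110 and 3983 in control libraries. The groups overlapped, and its log2 fold change of -0.35 ± 0.18 did not pass (SE, limma adjusted p = 0.236). Set against Sdc4 within each library, Sdc2 was lower in Cosmc KO glomeruli, with a log2 ratio of -3.00 ± 0.19 in Cosmc KO libraries and -2.56 ± 0.08 in control libraries and no overlap (difference -0.44, two-sided exact permutation p = 0.0159, adjusted p = 0.0397 over 5 ratios). Here too the adjusted exact permutation p was above the threshold without any 1 library other than control 3 (up to 0.0893), with differences from -0.52 to -0.37, and within the 4 pairs, all lower in the Cosmc KO animal, the exact permutation p was 0.125, the smallest possible. The Sdc2 to Sdc4 ratio likewise passed in 3 of 14 alternatives. The Sdc3 to Sdc4 ratio was -1.90 ± 0.37 in Cosmc KO libraries and -2.62 ± 0.35 in control libraries; its difference of 0.71 missed the threshold after adjustment (exact permutation p = 0.0317, adjusted p = 0.0529). For Sdc1 to Sdc4 the difference was -0.05 (exact permutation p = 0.873).

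**Figure D3:**
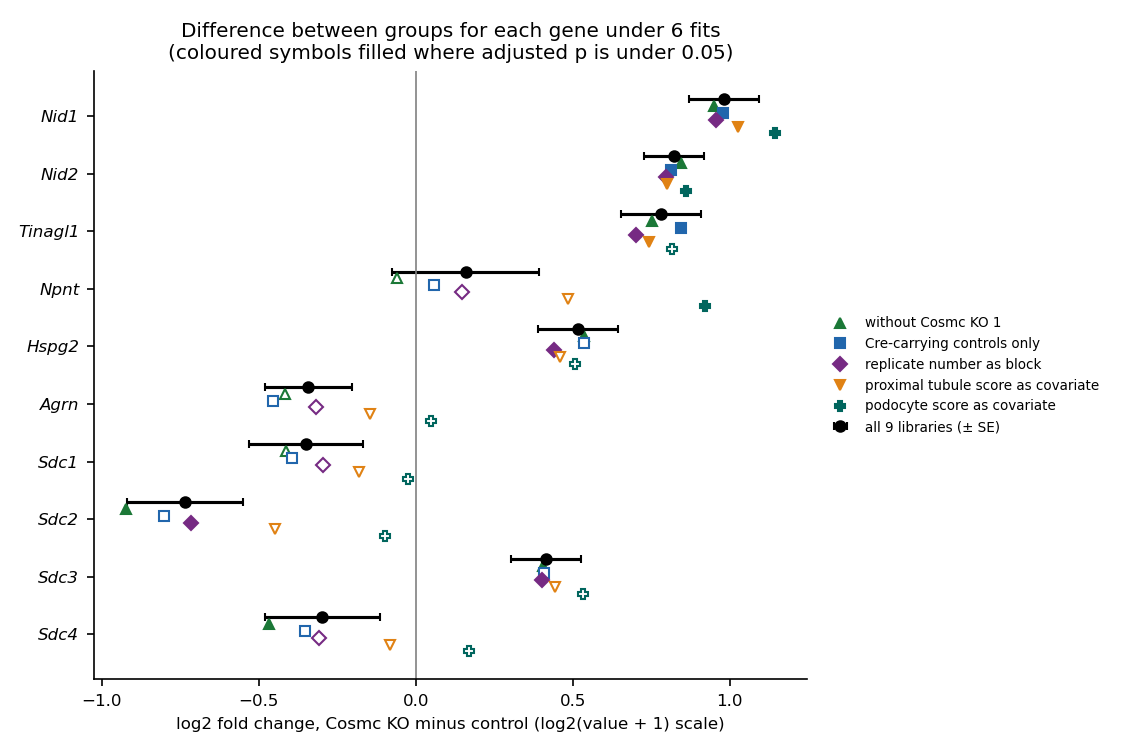
Log2 fold change of each member, Cosmc KO minus control, with all 9 libraries (black, with the standard error) and under 5 other fits (coloured, without error bars, filled where the adjusted p was under 0.05). Nid1 and Nid2 (0.98 and 0.82 with all libraries) pass in each of these fits, whereas Npnt is at 0.16 with all libraries and 0.92 with the podocyte score, and Sdc2 at -0.73 and -0.10.

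Which libraries enter mattered for the number of members called. With Cre-carrying controls only, Nid1, Nid2 and Tinagl1 were called higher (log2 fold changes of 0.98, 0.81 and 0.85) and none lower, where 1.69% of all genes were called higher; 3 members had a negative fold change at an unadjusted p under 0.05 in that limma fit. With a term for the proximal tubule score those 3 members were called higher (1.03, 0.80 and 0.74) and none lower, where 2.92% of all genes were called higher and 1 member was lower at an unadjusted p under 0.05. DESeq2 on the recovered reads called the 6 members named above, where it called 8.55% of all tested genes higher and 7.43% lower. edgeR called those except Sdc3, where it called 4.30% higher and 4.38% lower.

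Per kilobase of merged exon, Sdc4 was the most abundant member in both groups and Npnt the next. Merged exons join all annotated transcripts of a gene and may be longer than the transcripts present. Levels and shares therefore compare between genes only roughly. In Cosmc KO glomeruli the mean normalized counts per kilobase were 15821 for Sdc4, 11657 for Npnt, 8406 for Tinagl1, 5321 for Nid1, 2293 for Nid2, 2172 for Agrn, 1762 for Sdc3, 1446 for Sdc2, 1107 for Hspg2 and 629 for Sdc1. In control glomeruli they were 19169 for Sdc4, 10088 for Npnt, 4939 for Tinagl1, 2761 for Agrn, 2690 for Nid1, 2344 for Sdc2, 1324 for Sdc3, 1298 for Nid2, 818 for Sdc1 and 783.4 for Hspg2. Neighbours in this order whose ranges did not overlap were Tinagl1 above Nid1, Nid1 above Nid2, and Hspg2 above Sdc1 in Cosmc KO glomeruli. The other 6 neighbouring pairs overlapped there in range. Within single libraries, Sdc4 was nonetheless above Npnt and Agrn above Sdc3 in all 4 Cosmc KO libraries. Npnt above Tinagl1, Nid2 above Agrn, Sdc3 above Sdc2 and Sdc2 above Hspg2 held in 3 of 4 each. In control glomeruli the ranges were apart for Sdc4 above Npnt, Npnt above Tinagl1, Tinagl1 above Agrn, Sdc2 above Sdc3, and Nid2 above Sdc1, while Agrn and Nid1, Nid1 and Sdc2, Sdc3 and Nid2, and Sdc1 and Hspg2 overlapped. Of the 4 syndecans, Sdc4 held 80.2% ± 2.70 of the per-kilobase counts in Cosmc KO glomeruli and 80.9% ± 2.30 in control glomeruli; Sdc3 held 9.27% ± 2.00 in Cosmc KO glomeruli and 5.71% ± 1.24 in control glomeruli, and Sdc2 held 7.29% ± 0.84 in Cosmc KO glomeruli and 9.92% ± 0.40 in control glomeruli.

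**Figure D4:**
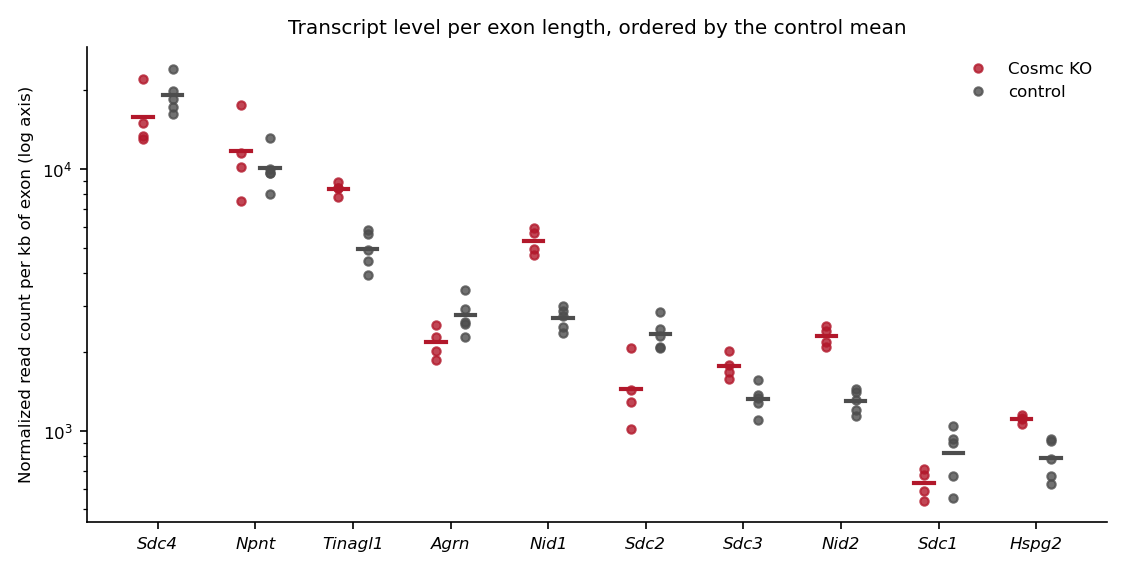
Normalized counts per kilobase of merged exon for the 10 members (log axis), with Cosmc KO left of control; points are libraries and bars are the group means. Sdc4, Npnt and Tinagl1 lead in both groups, and Nid1 lies above Agrn in Cosmc KO glomeruli (5321 and 2172) while the 2 overlap in control glomeruli (2690 and 2761).

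Other genes of the same pathway are described by lists drawn up by role, with earlier results of these data known. Of all tested genes, 4.16% were higher and 3.58% lower in the fit of all libraries. Without Cosmc KO 1, 2439 of the 16764 were higher and 2445 lower, and with the replicate block 9.55% and 7.09%. With the podocyte score 1.50% were higher, and with the tubule score 2.92%. The list counts stand beside these shares, and no list was tested as a set. Among 12 other heparan sulfate proteoglycan cores, 1 was higher and 2 were lower (median log2 fold change 0.25). Gpc3, glypican 3, a core anchored by a lipid, had 20574 ± 1659 normalized counts in Cosmc KO glomeruli and 8920 ± 1963 in control glomeruli (log2 fold change 1.23 ± 0.15, limma adjusted p = 0.00176). Gpc1, glypican 1 of the same family, went the other way with 2978 ± 622 in Cosmc KO glomeruli and 7885 ± 1789 in control glomeruli (log2 fold change -1.40 ± 0.19, limma adjusted p = 0.0027), and both calls held in all 24 alternatives. Tgfbr3, a co-receptor for TGF-beta that can carry heparan sulfate, was lower (-0.85, limma adjusted p = 0.049) and lost its call without any 1 library other than Cosmc KO 1 (adjusted p = 0.0614 to 0.135). With the podocyte score as a covariate its fold change was -0.11 (adjusted p = 0.824). The counts for these cores were 3 higher and 2 lower without Cosmc KO 1, 4 higher and 2 lower with the replicate block, and 2 higher and 1 lower with either the podocyte or the tubule score.

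None of the 16 genes that assemble the heparan sulfate chain was called by limma, with a median log2 fold change of 0.03. Of these, 2 had an unadjusted p under 0.05, DESeq2 called 1 and edgeR called 0. The same 1 gene was higher without Cosmc KO 1 and with the replicate block, and a different 1 was higher with the podocyte score. The former was Papss2, a relative of Papss1 that is named here after its values were seen. Its log2 fold change was 1.37 with all libraries (limma adjusted p = 0.19). The limma adjusted p was 0.0156 without Cosmc KO 1, 0.00277 with the block and 0.715 with the tubule score. The most abundant were Ext2, a subunit of the chain polymerase (log2 fold change 0.05, adjusted p = 0.736), and Papss1, which makes the sulfate donor (-0.14, adjusted p = 0.407). Of 15 genes that modify or cut the chain, 1 was higher and 2 were lower (median -0.20). Sulf1, an extracellular enzyme that removes 6-O sulfate groups from heparan sulfate, had 2572 ± 1271 normalized counts in Cosmc KO glomeruli and 9024 ± 1613 in control glomeruli (log2 fold change -1.92 ± 0.28, limma adjusted p = 0.00367), and was called in all 24 alternatives. Hs6st2, a transferase that adds 6-O sulfate, was higher from a low level, with 167 ± 47.9 normalized counts in Cosmc KO glomeruli and 62.9 ± 25.3 in control glomeruli (1.43, limma adjusted p = 0.0201; above the threshold without Cosmc KO 3, Cosmc KO 4 or control 5, at up to 0.0581). Hpse2, an inactive relative of heparanase, averaged 11.3 in Cosmc KO glomeruli and 38.7 in control glomeruli (-1.61, limma adjusted p = 0.0278). It lost its call without Cosmc KO 2, 3 or 4 or control 2, 4 or 5 (adjusted p = 0.0506 to 0.09). Hpse2 too was low, with 6.88 to 14.7 in Cosmc KO libraries and 23.0 to 76.2 in control libraries. Its control libraries alone met the filter of a value of 10 in 4 or more libraries. It was tested in 23 of the 24 alternative fits and called in 13. Without Cosmc KO 1, 2 genes of this list were higher and 7 lower, and with the replicate block 1 was higher and 6 were lower. The podocyte score left 0 higher and 1 lower, and the tubule score 1 and 1.

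Among 22 other linkers and associated proteins of basement membranes, 7 were higher and none was lower (median log2 fold change 0.28; 9 called by DESeq2 and 6 by edgeR in either direction). Vwa1, a matrix protein that binds perlecan, had 1296 ± 105 normalized counts in Cosmc KO glomeruli and 606 ± 107 in control glomeruli (log2 fold change 1.11 ± 0.14, limma adjusted p = 0.00184). Hmcn1, hemicentin 1, averaged 231 in Cosmc KO glomeruli and 74.3 in control glomeruli (1.62, limma adjusted p = 0.0175), and Smoc2, a calcium-binding matrix protein, 24.6 in Cosmc KO glomeruli and 7.19 in control glomeruli (1.62, limma adjusted p = 0.0243). Smoc2 was near the floor, with 12.4 to 32.3 in Cosmc KO libraries and 4.31 to 10.9 in control libraries. Its 4 Cosmc KO libraries alone met the filter of a value of 10 in 4 or more libraries. The gene thus entered the test through the group where it was higher. It was tested in 23 of the 24 alternative fits and called in 14. Smoc2 lost its call without Cosmc KO 2 or 3 or control 1, 3 or 5 (adjusted p = 0.0505 to 0.0839). Without Cosmc KO 1 the list had 8 genes higher and 2 lower, whereas 3 were higher with the podocyte score and 6 with the tubule score, with none lower. Hmcn1 and Smoc2 were not called with the podocyte score (limma adjusted p = 0.0858 and 0.369).

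Receptors and binding partners of the members gave 3 higher and 1 lower of 18 (median -0.02). Itgb5, an integrin beta chain, was lower (-0.91, limma adjusted p = 0.0253), while Lrp4, a receptor of agrin at the nerve-muscle junction, was higher (0.78, limma adjusted p = 0.0236), as was Lamb1, a laminin beta chain (0.43, limma adjusted p = 0.0233). Lrp4 lost its call without any 1 library other than Cosmc KO 1 and control 3, Itgb5 without Cosmc KO 2, 3 or 4 or control 1, 2 or 5, and Lamb1 without Cosmc KO 2 or 3 or control 1, 2, 4 or 5 (adjusted p up to 0.0838 in these limma fits). Without Cosmc KO 1 the counts were 3 higher and 3 lower, and with the replicate block 4 higher and 2 lower. With the tubule score limma called none (5 at an unadjusted p under 0.05), and 1 was higher and none lower with the podocyte score, where Itgb5, Lrp4 and Lamb1 were not called (limma adjusted p = 0.385, 0.298 and 0.359). The laminin chain that nidogens bind, Lamc1, and dystroglycan, Dag1, a receptor of agrin and perlecan, both chosen after their values were seen, had log2 fold changes of 0.19 (limma adjusted p = 0.291) and 0.00 (limma adjusted p = 0.994; 0.0361 with the podocyte score as a covariate).

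Of 8 proteases that can cut syndecans or their matrix partners, 4 were higher and none lower (median 0.38), and DESeq2 and edgeR also called 4. Adamts1 had 26624 ± 3285 normalized counts in Cosmc KO glomeruli and 14650 ± 2469 in control glomeruli (log2 fold change 0.87 ± 0.14, limma adjusted p = 0.00557). Mmp2 had 9981 ± 1010 in Cosmc KO glomeruli and 5926 ± 658 in control glomeruli (0.75 ± 0.10, limma adjusted p = 0.00286), and Mmp3 averaged 125 in Cosmc KO glomeruli and 32.5 in control glomeruli (1.97 ± 0.28, limma adjusted p = 0.00335). Without Cosmc KO 1 the counts were 4 higher and 1 lower, with the podocyte score 2 higher and none lower, and with the tubule score 3 higher and none lower. Mmp3 was not called with the podocyte score (limma adjusted p = 0.0663).

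**Figure D5:**
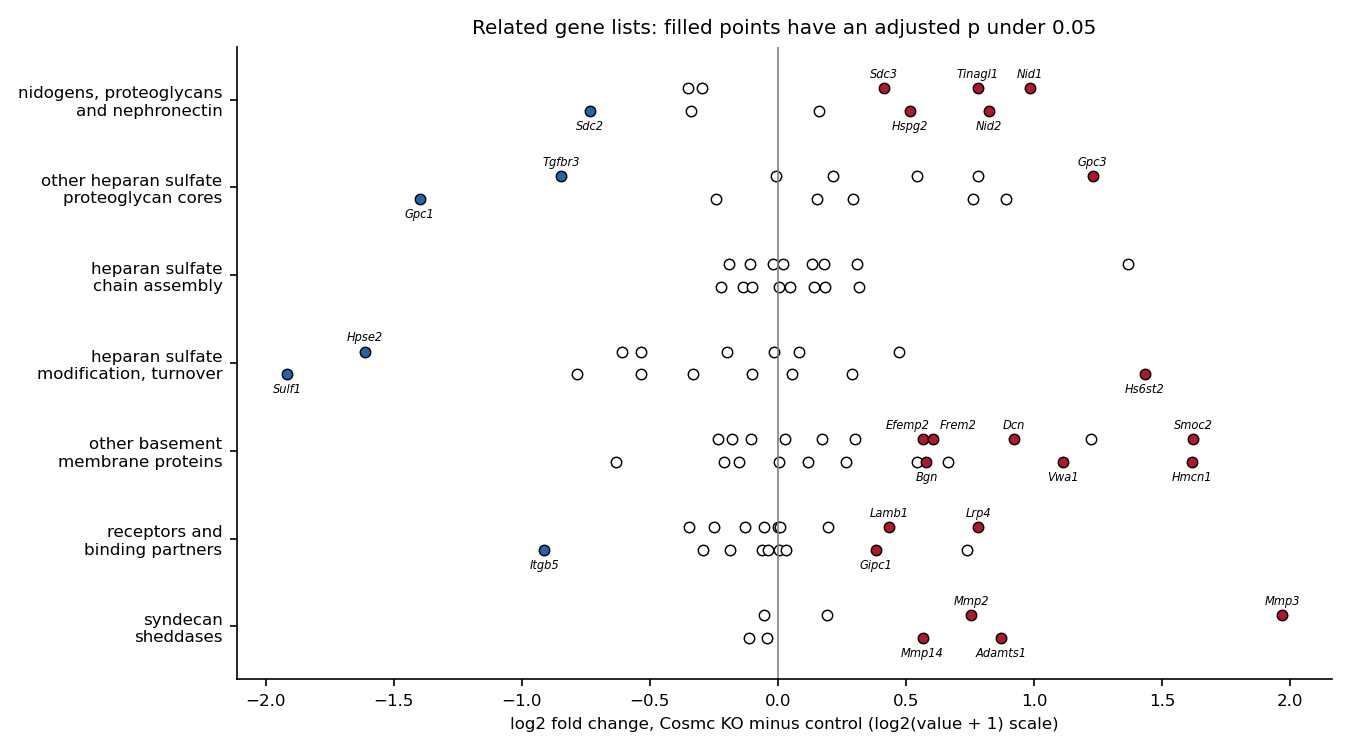
Log2 fold change, Cosmc KO minus control, of each gene in the 6 pathway lists and of the 10 members; filled points, named, had an adjusted p under 0.05 and are red where higher and blue where lower. The chain assembly genes lie around 0 (median 0.03) except for Papss2 far to the right, none of them filled, while the medians of the 10 members and of the proteases are 0.29 and 0.38.

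The genes whose pattern over the 9 libraries was closest to that of each called member were taken by Pearson's r of log2(normalized count + 1) among the 12732 tested genes with a mean of at least 100. The 9 points pool both groups, so a difference between groups alone gives a high r, and r is given as a description. For Nid1 these were Mmp17, Mamld1 and Frzb (each r = 0.99), and for Nid2 they were Col4a1 and Cd248 (each 0.99) and Nid1 itself (0.98). Col4a1, a chain of collagen IV, had a log2 fold change of 1.12 (limma adjusted p = 0.00286). Tinagl1 was closest to Adamtsl4, Myl9 (each 0.99) and Csrp1 (0.98), of which Myl9 and Csrp1 are genes of contractile cells. Hspg2 was closest to Znrf1, Capn5 and Arpc4 (each 0.98), and Sdc3 to Gm6548, Fkbp10 and Man1c1 (each 0.97). For Sdc2 the closest were Car13 (1.00), S100pbp (0.99) and a septin listed as SEPT11 (1.00).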

How the data were processed

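Poly(A) RNA from glomeruli of 4 Cosmc KO and 5 control mice was analysed; groups, replicate numbers, ages and genotypes came from the labels. Tools in the submitters' processing notes are DESeq2 (its version not given), featureCounts, STAR 2.5.2b and Subread 1.5.2, with the build GRCm38; of filters, annotation release and strandedness nothing is given in the sources used here. Sample columns as deposited are a signal: read counts per gene, scaled by the authors with 1 size factor for each library (the normalized counts). Other deposited columns are the mean over libraries, the authors' log2 fold change with its standard error (also log2), its Wald statistic (a score), and their p-value before and after adjustment. In each library 100% of values were whole multiples of a step to within 0.01, so reads were recovered; the size factor of control 3 is so close to 1 that count tests were also run without it, a choice made after seeing the data.

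edgeR had been planned for raw counts. Since the values are scaled, the test was limma 3.58.1 in R 4.3.3 on log2(value + 1), allowing the variance to follow the mean (trend), over 16764 genes that reached a value of 10 in 4 or more libraries, all 9 libraries and group as the only term; Benjamini-Hochberg adjusted p-values under 0.05 over all these genes were called. Fold changes on this scale understate those of low genes. Ratios of members were compared by two-sided exact permutation of the libraries, and by swaps within same-numbered pairs. Alternatives were DESeq2 1.42.0 and edgeR 4.0.16 (the quasi-likelihood test) on the recovered reads, TMM rescaling, no filter or 1 CPM in 4 libraries, pseudocounts of 0.5 and 4, age, the replicate number, or a podocyte or proximal tubule score as a term, Cre-carrying controls only, and libraries left out. Every pair of libraries differed beyond counting noise (chi-square over its degrees of freedom was 26.1 or more). The limma script was tested on simulated data first.

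The members and the gene lists were chosen with earlier results of these data known. Named genes were the 10 members, C1galt1c1, up to 3 called genes of each pathway list with the largest fold change in size (or its 2 most abundant genes if none was called), and the 3 genes most like each called member. Lengths and positions come from the GENCODE M21 annotation of GRCm38, promoter windows from RefSeq (GRCm38.p6).

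Same-numbered Cosmc KO and control animals share an age. Their deviations from the group means correlated over genes (r = 0.537, 0.507, 0.340 and 0.271 for numbers 1 to 4), so the numbers were taken as pairs. Some animals of unlike number correlated as much: Cosmc KO 3 with control 2 (0.529), Cosmc KO 1 and 4 with control 5 (0.337 and 0.326) and Cosmc KO 2 with control 3 (0.314). The remaining r ran from -0.511 to 0.015. Litters are not given in the labels.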

Additional observations from a re-analysis of the deposited data

How the results depend on the processing

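Over the alternatives, the number of genes called higher was 1434 with DESeq2 (1248 without control 3), 284 with Cre-carrying controls only, 252 with the podocyte score as a covariate, 224 without Cosmc KO 2 and 3 together, and 348 to 2439 when single libraries were left out, against 698. The number called lower was 1245 with DESeq2 (954 without control 3), 154 with Cre-carrying controls, 298 with the proximal tubule score, 99 with the podocyte score, 81 without Cosmc KO 2 and 3, and 175 to 2445 with single libraries left out, against 600; TMM rescaling gave 677 higher and 857 lower. Without Cosmc KO 1 the counts were 2439 higher and 2445 lower. Of the 10 members, 3 were higher and 0 lower with Cre-carrying controls, with the tubule score and with the podocyte score, 2 higher and 0 lower without Cosmc KO 2 and 3, 0 lower with edgeR without control 3, and 3 to 5 higher and 0 to 2 lower with single libraries left out. With the replicate number as a block (the pairing, with control 5 left out), 1601 genes were higher and 1189 lower, and no member's call changed.

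Agrn (0.048) and Sdc4 (0.169) changed sign with the podocyte score as a covariate and Npnt without Cosmc KO 1 (range over single libraries left out -0.059 to 0.348); the difference in the Sdc1 to Sdc4 ratio turned positive without Cosmc KO 1, control 3 or control 5 (range -0.201 to 0.101) and within same-numbered pairs (0.011). The cause was not tested. Nid1 and Nid2 were called in 24 of 24 alternatives, Tinagl1 in 22, Hspg2 in 14, Sdc3 in 12 and Sdc2 in 11. Swaps within pairs were added after seeing the data. With 1 library fewer, a permutation test of a ratio cannot go below p = 0.0286 or 0.0357.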
